A study of Homo sapiens with 6 samples.

Results

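Keratins are the intermediate filament proteins of epithelial cells. Type I (acidic) and type II (basic) keratins build filaments only in pairs of unlike type, and the filaments join desmosomes and hemidesmosomes into a network that carries mechanical load. Simple and glandular epithelia, the breast ducts among them, use KRT8 and KRT18 together with KRT7 and KRT19, whereas stratified epithelia and hair use other members. Here 10 keratin genes were examined out of 58735 genes in the count table: the type II genes KRT7, KRT8, KRT80, KRT81 and KRT86, and the type I genes KRT10, KRT15, KRT17, KRT18 and KRT19. The table lists 55 protein-coding keratin genes, so 45 lay outside this set.

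The cells were MDA-MB-231, an established human triple-negative breast cancer line of mesenchymal character, grown in culture. In the SCH group, cells received 100 mg/l of an aqueous extract of the herb Salvia chinensis Benth for 24 h, and the vehicle group received the carrier alone. Polyadenylated RNA was sequenced from 3 biological repeats per group. Total gene counts were 20291379, 18714240 and 18334857 in vehicle samples 1 to 3, and 16836369, 17979434 and 18414924 in SCH samples 1 to 3. The series holds a single line at a single dose and time, and fewer cells of a kind cannot be told apart from less RNA per cell.

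The line's markers were read before the keratins. Of 10 genes expected in MDA-MB-231, 9 passed the filter on low counts, and their highest was LGALS1 with a mean of 567 FPKM, a unit that scales counts by gene length and by sequencing depth. SPARC was the exception, near 0. VIM, the mesenchymal filament protein vimentin, averaged 263 FPKM in vehicle samples. The oestrogen and progesterone receptor genes ESR1 and PGR had mean counts of 3.17 and 0.167, and CDH1, which encodes E-cadherin, had 3.50. Of the 8 receptor and luminal or epithelial genes expected to be low, 4 nevertheless passed the filter. These were ERBB2 at 6.67 FPKM with vehicle and 8.22 FPKM with SCH, EPCAM at 6.53 and 4.59 FPKM, GATA3 at 3.84 and 2.24 FPKM, and FOXA1, a luminal transcription factor, at 0.995 and 2.24 FPKM. Of 13 markers of blood, endothelial, stromal and liver cells, DCN and HBB were at 0 in every sample, and 4 passed the filter (PTPRC, PECAM1, COL1A1 and ACTA2). PTPRC, a marker of blood cells, had 39, 37 and 34 counts with vehicle and 4, 9 and 3 with SCH (log2 fold change −2.75, SE 0.37), and COL1A1, a collagen of stromal cells, had 106, 80 and 85 with vehicle and 147, 162 and 147 with SCH (log2 fold change 0.76, SE 0.14). Both differed between the groups without overlap, and their part in the keratin values was not tested. PTPRC passed the filter through its vehicle samples alone, so a gene of its level had to be higher there to be tested at all. These 13 genes summed to between 1.27 and 1.61 FPKM per sample, with COL1A1 the highest at a mean of 0.650 FPKM.

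The 10 genes were chosen by name with the SCH against vehicle contrast of these same samples already known. They coincide with the protein-coding keratins that passed an adjusted p of 0.05 in the edgeR quasi-likelihood test, 4 with higher and 6 with lower counts in SCH samples. Of 14736 genes tested, 58.7% passed that threshold, 29.3% upward and 29.4% downward. The members' own differences are therefore given as descriptions, and nothing is read from their count. The keratin nearest to the threshold among the 10 was KRT19 (adjusted p = 0.0234 by edgeR). The nearest outside was KRT34 (adjusted p = 0.0657 by edgeR).

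In vehicle-treated cells the keratin transcripts ranged from a mean of 0.145 FPKM for KRT17 to 169 FPKM for KRT7. The lengths behind the deposited FPKM join all annotated exons of a gene, so they exceed a single transcript by a different factor in each gene (6881 bases for KRT8, whose transcript with the longest coding sequence has 1687, and 2336 for KRT19, against 1390). The fold change of a single gene between groups is untouched by this, but the order of genes depends on it, as do sums and shares over several genes. KRT7, a type II keratin of ducts and glands, had the highest FPKM with vehicle, whereas KRT8 was first when levels were taken per length of that transcript or per coding length. KRT7 measured 169, 171 and 167 FPKM in vehicle samples and 48.8, 45.2 and 45.6 FPKM in SCH samples. Every SCH sample was far below every vehicle sample. The log2 fold change of normalised counts was −1.87 (SE 0.05), a 3.65-fold lower level. KRT7, KRT86 and KRT80 had the lowest fold changes of the 10, and the error of KRT86 does not settle its place among them. Of all tested genes, 4.95% had a log2 fold change of −1 or below.

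KRT8 and KRT18, the type II and type I partners that form the basic network of simple epithelia, averaged 128 ± 8.09 and 129 ± 4.79 FPKM with vehicle (SD, n = 3). KRT8 measured 129, 136 and 119.7 FPKM with vehicle and 113, 107 and 109 FPKM with SCH. KRT18 measured 131, 133 and 124 FPKM with vehicle and 76.8, 72.1 and 74.7 FPKM with SCH. Both groups were separate for both genes, but the gap was narrow for KRT8 and wide for KRT18. The log2 fold change was −0.23 (SE 0.05) for KRT8 and −0.80 (SE 0.05) for KRT18. With scaling by library size only, it was −0.12 for KRT8 and −0.70 for KRT18. The KRT8 to KRT18 ratio of FPKM was accordingly higher with SCH, 1.47 ± 0.014 against 0.989 ± 0.027 with vehicle (SD, n = 3). Per transcript length, which multiplies the ratio by the same constant in every sample, it was 1.78 with vehicle and 2.65 with SCH, so the level of the ratio depends on the lengths used. KRT8 and KRT18 lie side by side on chromosome 12 (GRCh38; KRT8 at chr12:52897187-52949954 on the minus strand, KRT18 at chr12:52948871-52952901 on the plus strand). Their annotated exons share 525 bases on opposite strands, 7.63% of the exonic bases of KRT8 and 16.3% of those of KRT18. Strand use in the counting was not stated, so reads from the shared stretch cannot be assigned to either gene with certainty.

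KRT80, a type II keratin found in many epithelia near the cell periphery, was next in FPKM with vehicle, after KRT7, KRT18 and KRT8. It measured 70.7, 73.6 and 69.0 FPKM in vehicle samples and 25.3, 25.2 and 25.1 FPKM in SCH samples. The SCH samples were nearly identical to each other (25.2 ± 0.104 FPKM, SD, n = 3) and all lay below the vehicle samples (log2 fold change −1.50, SE 0.05). No exonic base of KRT80 lies in another annotated gene, and none of its 100-base windows recurs in another gene.

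**Figure D1:**
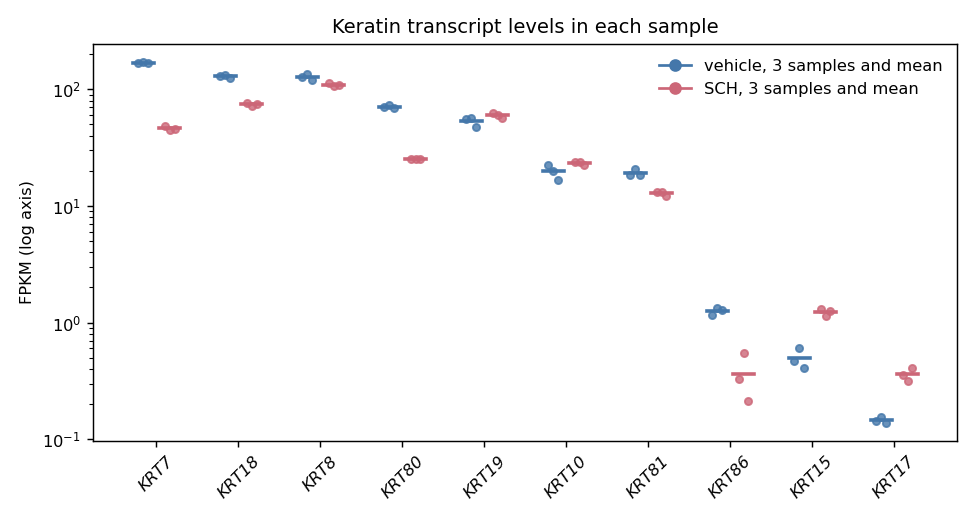
FPKM of the 10 keratins in each of the 6 samples on a log axis, with the genes in order of vehicle level. Points are samples and bars are group means (n = 3), and the treated samples lie lowest relative to vehicle for KRT7, KRT80 and KRT86.

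KRT81 and KRT86 are type II keratins of the hair cortex, and they are close copies on chromosome 12. KRT81 measured 18.5, 20.9 and 18.4 FPKM with vehicle and 13.1, 13.2 and 12.1 FPKM with SCH (log2 fold change −0.59, SE 0.07). KRT86 measured 1.16, 1.33 and 1.29 FPKM with vehicle and 0.327, 0.544 and 0.213 FPKM with SCH. The groups did not overlap for either gene, although KRT86 rested on 56, 59 and 57 counts with vehicle and 14, 25 and 10 counts with SCH (log2 fold change −1.80, SE 0.28). The ratio of KRT81 to KRT86 in FPKM was 15.3 ± 0.956 with vehicle and 40.4 ± 16.3 with SCH (SD, n = 3). The SCH samples were spread over 40.1, 24.3 and 57.0, all above the vehicle samples.

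How far these 2 genes can be told apart by their reads was examined in the transcript sequences of GENCODE release 29. Aligned over 1522 columns, their coding sequences were 89.6% identical (1364 columns), the closest pair among the 10, and the longest identical run was 605 bases. Of all 100-base windows of KRT81 transcripts, 29.7% recurred in another gene, as did 25.8% of those of KRT86. A 90-base window from the 5′ part of the coding sequence (bases 61 to 150) shows a stretch where a read cannot be assigned. It lies in exon 1 of KRT81 (chr12:52291316-52291405, minus strand) and exon 3 of KRT86 (chr12:52301977-52302066, plus strand), and has 0 differences between them.
KRT81 and KRT86, identical: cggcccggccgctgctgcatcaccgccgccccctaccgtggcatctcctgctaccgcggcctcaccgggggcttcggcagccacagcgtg

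The window that differed most (bases 1237 to 1326 of both coding sequences) held 19 differences in 90 bases, so that reads there do separate the genes. It spans exons 7 to 9 of KRT81 within chr12:52286447-52287112 (minus strand) and exons 9 to 11 of KRT86 within chr12:52306270-52308450 (plus strand). Both are printed 5′ to 3′ in the sense of the transcript, and the capitals mark the bases that differ.
KRT81: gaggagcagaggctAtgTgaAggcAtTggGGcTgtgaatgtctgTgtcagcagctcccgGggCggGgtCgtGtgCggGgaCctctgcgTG
KRT86: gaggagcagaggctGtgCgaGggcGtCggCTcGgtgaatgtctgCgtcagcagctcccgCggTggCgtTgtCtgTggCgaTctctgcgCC

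Because of this likeness the separate values of KRT81 and KRT86 are uncertain, and their sum was taken as well. Summed counts were 775, 808 and 709 with vehicle and 466, 514 and 469 with SCH (log2 fold change −0.66, SE 0.07). The sum was lower in every SCH sample and followed KRT81, which supplied most of it.

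Levels of the remaining type I genes, all on chromosome 17, were higher with SCH or overlapped between groups. KRT19, a type I keratin of ducts with an unusually short tail, measured 56.0, 56.4 and 47.2 FPKM with vehicle and 62.9, 60.2 and 56.9 FPKM with SCH (log2 fold change 0.17, SE 0.06). The groups were separate by a narrow margin only, between vehicle sample 2 and SCH sample 3. KRT10, which pairs with KRT1 in the upper layers of the epidermis, measured 22.6, 20.1 and 16.7 FPKM with vehicle and 23.8, 23.6 and 22.6 FPKM with SCH (log2 fold change 0.23, SE 0.08). Here the groups overlapped in FPKM and in normalised counts, since vehicle sample 1 was slightly above SCH sample 3. Per total counts alone they did not overlap (978 of 20291379 in vehicle sample 1 and 951 of 18414924 in SCH sample 3). Vehicle sample 3 was the lowest sample for both genes, and without it the log2 fold change was 0.09 for KRT19 and 0.12 for KRT10, neither of them past the threshold.

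KRT15 and KRT17, type I keratins of basal cells and hair follicles, the latter also known to be induced in wounded skin, were scarce. KRT15 measured 0.470, 0.602 and 0.407 FPKM with vehicle and 1.30, 1.13 and 1.25 FPKM with SCH (log2 fold change 1.31, SE 0.15). KRT17 measured 0.143, 0.155 and 0.139 FPKM with vehicle and 0.357, 0.316 and 0.406 FPKM with SCH (log2 fold change 1.29, SE 0.35). On log2(FPKM + 1), by limma, the difference was 0.58 for KRT15 and 0.25 for KRT17. Every SCH sample was above every vehicle sample for both genes. KRT17 had 9, 9 and 8 counts with vehicle and 20, 19 and 25 with SCH. It passed the filter on low counts through its SCH samples alone, so a gene of its level had to be higher there to be tested at all. The 9 other members passed the filter with 2 or 3 samples in each group.

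Across the set, every SCH sample was above every vehicle sample for 3 genes, below for 6, and overlapping for 1 in counts normalised for depth (CPM). Over all tested genes 62.4% had groups that did not overlap, 31.1% with SCH above and 31.3% with SCH below. By location, the 6 members on chromosome 12 (KRT7, KRT8, KRT18, KRT80, KRT81 and KRT86) had log2 fold changes below 0, with a median of −1.15, and the 4 on chromosome 17 (KRT10, KRT15, KRT17 and KRT19) had values above 0, with a median of 0.76. KRT18 is the type I gene that lies in the type II cluster on chromosome 12. This is a description of genes that were chosen on these same values, and of the 4 on chromosome 17, KRT17 was tested only because of its SCH samples and KRT10 and KRT19 depended on vehicle sample 3. The median over the 10 was −0.41, likewise a description of the choice, and over all genes tested it was −0.0034.

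**Figure D2:**
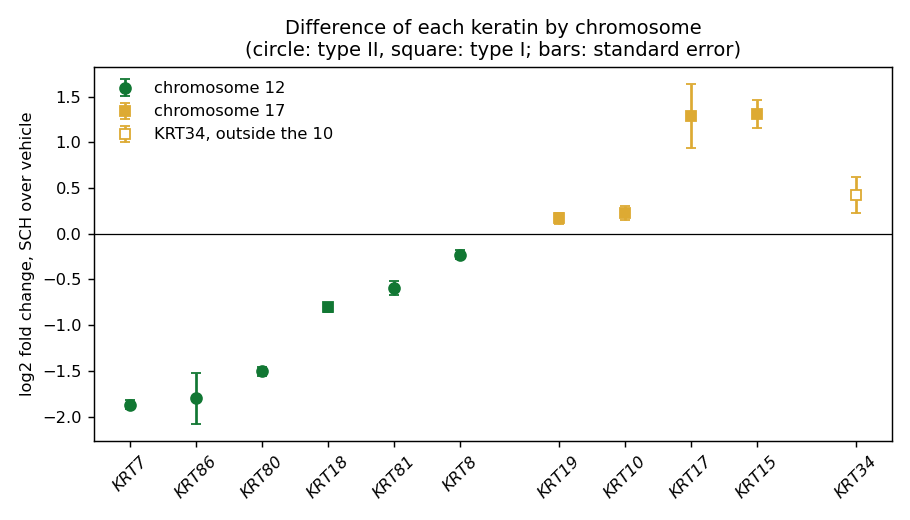
Log2 fold change (SCH over vehicle) with standard error for the 10 keratins, grouped by chromosome, and for KRT34, which is outside the set. Circles are type II and squares type I genes. The 6 genes on chromosome 12 lie below 0 and the 4 on chromosome 17 lie above 0.

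As a summary of the pool, FPKM values were added over the genes, with the limit on lengths given above. Beyond length and total count, the deposited FPKM carries a factor of 0.995 to 1.01 with vehicle and 0.937 to 0.941 with SCH. This factor lowers the sum in SCH samples relative to vehicle samples. The 10 keratins summed to 598, 614 and 564 FPKM with vehicle and to 366, 349 and 348 FPKM with SCH, which is 592 ± 25.3 against 354 ± 9.96 (SD, n = 3) and a 1.67-fold lower sum. The fold was 1.59 per transcript length and 1.67 per coding length. The sum of all 55 protein-coding keratins was 594 FPKM with vehicle and 357 FPKM with SCH, so the 10 held nearly all of the keratin transcript pool.

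The order of the members in FPKM was also different. With vehicle, KRT7 was first, followed by KRT18 and KRT8 without separation, then KRT80, KRT19, KRT10 and KRT81 (the last pair again without separation), KRT86, KRT15 and KRT17. With SCH the order was KRT8, KRT18, KRT19, KRT7, KRT80, KRT10, KRT81, KRT15, and then KRT86 and KRT17, which did not differ beyond their spread. Per transcript length KRT8 was first in both groups, followed with vehicle by KRT7 and KRT18, and with SCH by KRT18 and then KRT7 and KRT19. KRT7 made up 28.6% ± 0.914 of the pool with vehicle and 13.1% ± 0.196 with SCH. KRT8 made up 21.6% ± 0.472 and 31.0% ± 0.306, and KRT19 8.97% ± 0.536 and 16.9% ± 0.513. Per transcript length the shares were 27.8% and 12.1% for KRT7, 36.7% and 50.1% for KRT8, and 6.28% and 11.3% for KRT19, with the same directions. KRT18 made up 21.9% ± 0.131 with vehicle and 21.0% ± 0.393 with SCH, and 20.6% ± 0.162 and 18.9% ± 0.264 per transcript length, with every SCH share below every vehicle share on both scales.

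Ratios between members moved likewise. The KRT7 to KRT19 ratio of FPKM was 3.20 ± 0.299 with vehicle and 0.776 ± 0.026 with SCH (SD, n = 3), and per transcript length it was 4.44 and 1.08. The KRT8 to KRT7 ratio of FPKM was 0.757 ± 0.039 with vehicle and 2.36 ± 0.040 with SCH, and per transcript length it was 1.32 and 4.13. Type II transcripts were 65.7% ± 0.853 of the pool with vehicle and 55.0% ± 0.221 with SCH (SD, n = 3), or 71.6% and 66.9% per transcript length. Type II therefore remained the larger class in each of the 6 samples, by a smaller margin in the SCH samples.

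**Figure D3:**
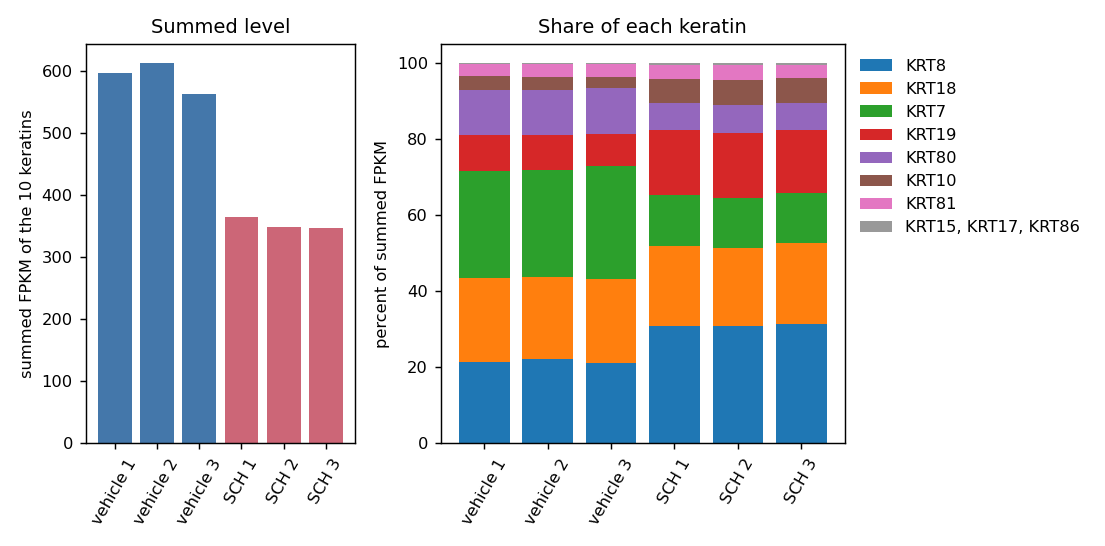
Left, summed FPKM of the 10 keratins in each sample; right, the percent of that sum that each keratin made up. The sum lies between 564 and 614 FPKM in vehicle samples and between 348 and 366 FPKM in SCH samples, and the share of KRT7 is smaller and that of KRT8 and KRT19 larger with SCH.

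Of the 45 other protein-coding keratins, 22 were at 0 in every sample and 1 passed the filter. That gene was KRT34, a type I hair keratin, with 50, 51 and 50 counts with vehicle and 54, 63 and 86 with SCH (log2 fold change 0.43, SE 0.20, adjusted p = 0.0657 by edgeR). By mean FPKM the highest of the untested genes were KRT39 with 18 counts in all vehicle samples together and 28 in all SCH samples, KRT79 with 11 and 15, and KRT33B with 9 and 6. KRT5 and KRT1, the usual type II partners of basal and upper epidermal type I keratins, were at 0 in every sample, which allows up to 3 counts in each. KRT14, the basal type I keratin, had 2 counts in all vehicle samples together and 15 in all SCH samples, and KRT78 had 3 and 14. Both are named after their values were seen, and neither passed the filter on low counts. With no filter, KRT14 passed an adjusted p of 0.05 by edgeR, although its groups overlapped (0, 2 and 0 counts with vehicle, 5, 2 and 8 with SCH).

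Genes that share exons or sequence with the members were read next, since part of their reads may belong to the keratins. KRT7-AS, an antisense gene over 6.89% of the exonic bases of KRT7, had 100, 88 and 97 counts with vehicle and 16, 27 and 17 with SCH (log2 fold change −2.24, SE 0.22, adjusted p = 6.32e-09 by edgeR). Its direction was that of KRT7, and without stated strand use reads from the shared stretch cannot be assigned to either gene with certainty. TMEM99, which covers 2.61% of the exonic bases of KRT10 on the other strand, was slightly higher with SCH, as was KRT10 (log2 fold change 0.20, adjusted p = 0.0314 by edgeR).

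Pseudogenes of keratins were many but little counted. The table holds 147 keratin pseudogenes, of which 6 were tested. At an adjusted p of 0.05, 3 were lower with SCH, and the other 3 did not pass, so 50% changed beside 58.7% of all genes tested. Among the 3 that were lower, KRT18P34 was tested through its vehicle samples alone. Where every sample needed 10 counts, 2 were lower. KRT8 has 50 of the 147 pseudogenes, and their counts came to 1.01% of its own. KRT18 has 67, with 0.447% of its counts. For KRT17 the 8 pseudogenes held 11.1% as many counts as the gene, mostly in vehicle samples, and adding them changed its log2 fold change from 1.29 to 0.89. The pseudogenes that were lower were KRT8P12 (−0.53, adjusted p = 0.0140), KRT87P (−1.19, adjusted p = 0.00178) and KRT18P34 (−2.43, adjusted p = 1.76e-04, by edgeR). KRT87P shares 32 exonic bases with KRT7 on the opposite strand, and 100-base windows with KRT81 and KRT86. Part of its reads may therefore belong to these members. KRT18P34 had 17, 13 and 15 counts with vehicle and 3, 3 and 2 with SCH. It passed the filter on low counts through its vehicle samples alone. A gene of its level had to be higher there to be tested at all.

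The proteins that tie keratin filaments to junctions and to other parts of the cytoskeleton formed a list of 22 linker genes. Of the 16 tested, 7 rose, 3 fell and 6 did not pass the test (median log2 fold change 0.18), so 62.5% changed beside 58.7% of all genes. JUP, which encodes the desmosomal plaque protein plakoglobin, rose from 7.36 ± 0.769 to 15.8 ± 0.802 FPKM (SD, n = 3, log2 fold change 1.10, adjusted p = 4.45e-12 by edgeR). Its partner in the plaque PKP3 (plakophilin 3) fell by 1.05 on the log2 scale (adjusted p = 2.10e-10 by edgeR), as did TCHP, a keratin-binding protein, by 0.91 (adjusted p = 4.11e-11). DSP, the desmoplakin that anchors keratin filaments at desmosomes, measured 10.3, 10.8 and 11.8 FPKM with vehicle and 14.9, 14.6 and 13.6 FPKM with SCH (log2 fold change 0.38, adjusted p = 3.95e-06 by edgeR). PERP, a desmosomal membrane protein, rose by 0.46 (adjusted p = 5.98e-08). PLEC, the large cytolinker plectin, had overlapping groups at 139.5 and 152 FPKM (log2 fold change 0.12, adjusted p = 0.1001 by edgeR).

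Other intermediate filament genes numbered 16, of which 8 were tested, 2 rose and 4 fell (median log2 fold change −0.40). VIM measured 261, 269 and 261 FPKM with vehicle and 177, 184 and 179 FPKM with SCH, and fell by 0.56 on the log2 scale (adjusted p = 2.02e-10 by edgeR). The nuclear lamin genes fell together: LMNB1 by 1.01 (adjusted p = 5.36e-13), LMNB2 by 0.81 (adjusted p = 7.02e-12) and LMNA by 0.59 (adjusted p = 4.51e-10, by edgeR).

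Transcription factors known to act on epithelial genes formed a list of 26, of which 18 were tested, 7 rose, 3 fell and 8 did not pass (median log2 fold change 0.03). ELF3, among the 7 and named after its values were seen, passed the filter on low counts through its SCH samples alone. Where every sample needed 10 counts, 6 rose. RELB, a subunit of NF-kB, rose from 12.4 to 31.9 FPKM (log2 fold change 1.36, adjusted p = 6.15e-14 by edgeR) and KLF5 by 0.44 (adjusted p = 1.16e-06). The repressors of epithelial genes in the list did not move together. SNAI2 fell by 1.03 (adjusted p = 1.70e-10), SNAI1, named after its values were seen, rose by 1.88 (adjusted p = 1.18e-07), and ZEB1 and ZEB2, also named afterwards, did not pass (log2 fold changes 0.04 and −0.04, adjusted p = 0.599 and 0.717, by edgeR). GATA3, a factor of luminal breast cells, fell by 0.79 (adjusted p = 4.36e-06, by edgeR). TP63, the regulator of basal keratins, had a mean count of 2.33 and was not tested.

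Epithelial junction and splicing genes (14, of which 9 were tested) included 3 that rose and 2 that fell. ESRP2, an epithelial splicing factor, fell by 1.16 (adjusted p = 1.18e-09) and EPCAM, an epithelial adhesion molecule, by 0.52 (adjusted p = 9.22e-05, by edgeR). LSR, of the tricellular junction, rose by 0.38 (adjusted p = 2.23e-05) and CLDN4, a tight junction claudin, by 0.25 (adjusted p = 0.00106, by edgeR). Of 19 genes listed under the cornified envelope and epidermal differentiation, 5 were tested. This list is not limited to parts of the envelope, and SFN is not one of those parts. SFN (108 to 132 FPKM, log2 fold change 0.28, adjusted p = 2.17e-04) and the scarce SBSN (0.365 to 1.38 FPKM, log2 fold change 1.89, adjusted p = 7.04e-06) rose, and FLG fell by 0.41 (adjusted p = 2.54e-04, by edgeR). In these 5 lists, linkers to cornified envelope genes, the share of tested genes that changed was between 55.6% and 75%, against 58.7% of all genes tested.

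**Figure D4:**
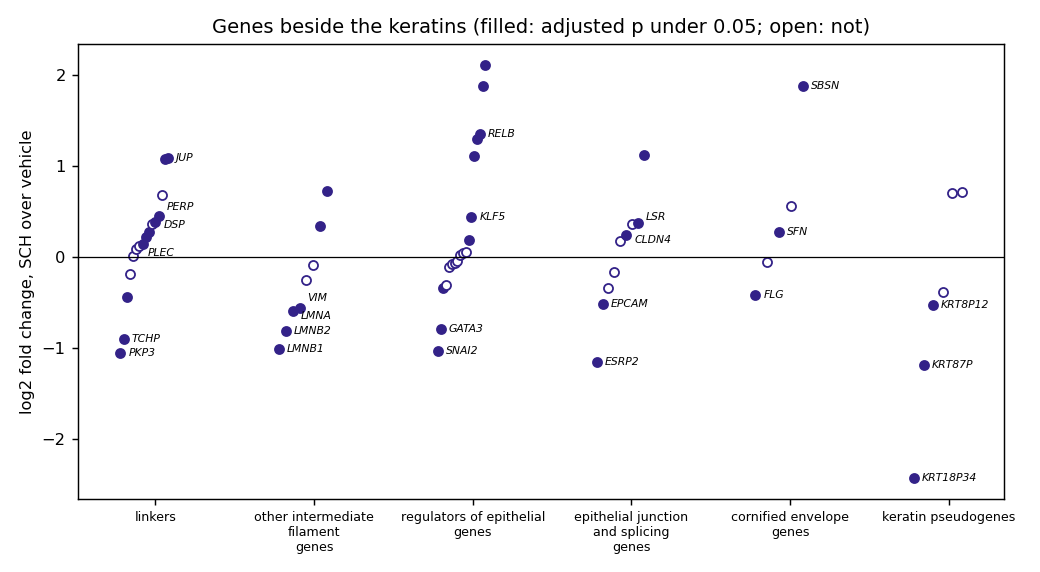
Log2 fold change (SCH over vehicle) of each tested gene in 6 lists: linkers, other intermediate filament genes, regulators of epithelial genes, epithelial junction and splicing genes, cornified envelope genes and keratin pseudogenes. Filled points passed an adjusted p of 0.05 by edgeR and open points did not, and genes described in the text are named.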

How the data were processed

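RNA from 6 cultures of MDA-MB-231 cells (3 vehicle, 3 SCH) was sequenced on an Illumina instrument after selection of polyadenylated RNA. The submitters' processing notes name CASAVA 1.8, HISAT2 2.0.5, featureCounts 1.5.0-p3 and DESeq2 1.20.0 and the human build GRCh38, without giving their order or settings. The deposited raw counts are whole reads per gene. The authors also deposited FPKM per sample. In these files it equals the count divided by gene length and total count (in the usual units), times a factor per sample. The factor was 0.995 to 1.01 in vehicle samples and 0.937 to 0.941 in SCH samples. FPKM is thus lower with SCH, relative to vehicle, than length and total count alone would give. TMM scaled in the same direction (library sizes multiplied by 0.961 to 0.971 with vehicle and by 1.03 to 1.04 with SCH). All 58735 gene identifiers occur in GENCODE release 29, 58724 with the same start and end, and that annotation and its transcripts gave coordinates, overlaps and sequences.

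Counts were normalised by TMM, filtered with filterByExpr and tested by the quasi-likelihood test of edgeR 4.0.16 (R 4.3.3, SCH against vehicle, all 6 samples, no covariate). P-values were adjusted by Benjamini-Hochberg over the 14736 genes tested, with a threshold of 0.05. Alternatives used other scalings, filters, DESeq2 1.42.0, limma 3.58.1 on log2(FPKM + 1) and log2(FPKM + 0.1), a replicate block and the omission of each sample. Levels per transcript length and per coding length were added after the data were seen. All columns of per-sample values were used.

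The keratins and the other gene lists were chosen with earlier results of these data known. From each list other than the keratins, genes past the threshold were named: all if at most 4, otherwise the 4 with the largest change among those with a mean count of at least 100, besides VIM, CDH1, ESR1, PGR, ERBB2, PLEC, DSP and TP63. Genes named outside this rule, after their values were seen, are marked so in the text. Replicates were not copies (chi-square per degree of freedom of 2.11 to 5.73 within groups). With 3 samples against 3, the smallest two-sided exact permutation p is 0.1 for a single value.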

Additional observations from a re-analysis of the deposited data

How the results depend on the processing

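Of 237 recomputed counts and pool values, 228 stayed within their limits (1.5 times for a count, 1 SD between replicates for the pool) and 9 moved, and none turned direction. Requiring in addition an absolute log2 difference of 1 or more, 1292 genes changed in place of 8650. Other keratin genes raised numbered 1 in place of 0 under 5 alternatives: KRT34 with library size scaling, with limma on log2(FPKM + 0.1) or log2(FPKM + 1) and without SCH replicate 1, and KRT14 with no filter. Keratin pseudogenes raised numbered 1 in place of 0 (KRT8P33, named after its values were seen) without vehicle replicate 3, and cornified envelope genes lowered numbered 2 (1 in the report) with no filter. The log2 difference of the keratin sum was −0.67 per transcript length, an alternative chosen after seeing the data, in place of −0.74. Leaving out each replicate gave 7809 to 8489 genes changed, and DESeq2 gave 7532.

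No member changed sign. KRT10 and KRT19 were not past the threshold without vehicle replicate 3 or with limma on either FPKM scale, KRT19 also with upper quartile scaling and without SCH replicate 1, and KRT17 was untested where every sample needed 10 counts. Across alternatives the log2 fold change was between −1.90 and −1.77 for KRT7, −0.27 and −0.12 for KRT8, −0.84 and −0.70 for KRT18, −2.22 and −0.74 for KRT86, 0.58 and 1.47 for KRT15, and 0.25 and 1.39 for KRT17. Without SCH replicate 2, KRT86 (−2.22) was below KRT7 (−1.84). Scaling by library size shifted the median of all genes to 0.10, with 62.6% of changed genes raised, against 49.9% with TMM.

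Same-numbered samples did not deviate together (correlations 0.046, −0.022 and 0.022). These values show no pairing by number, but they cannot exclude one. With the replicate block 8705 genes changed, and 4 members were raised and 6 lowered. Depth limits KRT15, KRT17 and KRT86 most, with at most 59 counts per sample for KRT86.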

Other observations

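Genes within 500 kb of the keratin clusters were counted, by a limit of distance set after the keratin values were seen. Around the cluster on chromosome 12, 21 other genes were tested, of which 5 rose and 6 fell, with a median log2 fold change of −0.07. Around the cluster on chromosome 17, 29 were tested, 8 rose and 10 fell, with a median of 0.06. TNS4, named after its values were seen, was among the 10 and passed the filter on low counts through its vehicle samples alone. RARA-AS1, also named afterwards, was among the 8 and would not have passed that filter without its SCH samples. It had 11, 12 and 9 counts with vehicle and 31, 31 and 28 with SCH. Over all genes tested, 29.3% rose and 29.4% fell. JUP, which rose, lies among the genes around the cluster on chromosome 17.

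Among the regulators of epithelial genes, 4 scarcer genes rose that fell outside the rule for naming and were noted after their values were seen: ELF3 (log2 fold change 2.12), SNAI1 (1.88, a repressor related to SNAI2), GRHL1 (1.30) and CEBPA (1.11). ELF3 passed the filter on low counts through its SCH samples alone. A gene of its level had to be higher there to be tested at all.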
